A study of Arabis alpina with 12 samples.

Results

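Among the 24657 genes of the leaf mRNA table of Arabis alpina, 643 carried H3K4me3 as their only called mark and stood at the bottom of the mRNA scale. They were chosen by 3 values: an exon coverage under 1.5 in the mRNA library, at least 200 bp of the gene's span (start to end) inside H3K4me3 domains, and under 200 bp inside the domains of each of H3K27me3, H3K27me1 and 5mC. They were 3.89% of the 16545 listed genes with H3K4me3 alone, and the other 15902, with a coverage of 1.5 or more, served as the comparison. Arabis alpina is a perennial relative of Arabidopsis. Young leaves of the accession Pajares were taken from plants grown in soil at 22.5 °C with 16 h of light and 8 h of dark. There was 1 genotype and no treatment, so every comparison below is between sets of genes within the same leaves. H3K4me3, H3K27me3 and H3K27me1 were mapped by chromatin immunoprecipitation with 2 libraries each and 1 shared input, 5mC by immunoprecipitation of methylated DNA with 2 libraries and 2 inputs, and mRNA with 1 library.

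H3K4me3 is placed by Trithorax-type methyltransferases on nucleosomes just inside the start of genes, and in plants it is usually found where RNA polymerase II is at work. H3K27me3, set by Polycomb complexes, marks genes held silent in a given tissue. H3K27me1 and cytosine methylation mark silent heterochromatin rich in transposons. A gene with H3K4me3, none of the silencing marks and hardly any mRNA is therefore not the usual combination. A leaf holds many cell types, and an mRNA made in few cells cannot be told apart here from little mRNA in every cell.

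Every value below has 1 number per gene, without replicate error, because each mark was deposited as 1 domain list and mRNA as 1 library. Genes are not replicates, so no p-value was computed between gene sets. Intervals are 95% intervals that cover counting error only, and sequencing depth is unknown. The files pair no identifier with a gene name, so the leaf label could not be checked against marker genes and roles of single genes are not given.

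The members' coverage, which chose them, ran from 1 to 1.498 with a median of 1.196 (quartiles 1 and 1.35). The lowest value in the table is 1, and 190 of the 643 members, 29.5%, held exactly that. Whether genes without any read were left out of the table could not be told, so all shares are of listed genes. Little mRNA here means the low end of this scale, not its absence. The other genes of the mark state had a median of 8.45 (quartiles 4.61 and 17.2). A coverage under 1.5 was found in 3.89% of the 16545 genes with H3K4me3 alone, in 15.2% of all listed genes, in 37.3% of the 3671 genes without a mark and in 50.9% of the 1568 genes with H3K27me3 alone. These shares follow from the rule and describe where the members come from. Of all 3758 listed genes under 1.5, the members made up 17.1% (exact interval 15.9% to 18.4%), genes without a mark 36.4% and genes with H3K27me3 alone 21.2%.

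**Figure D1:**
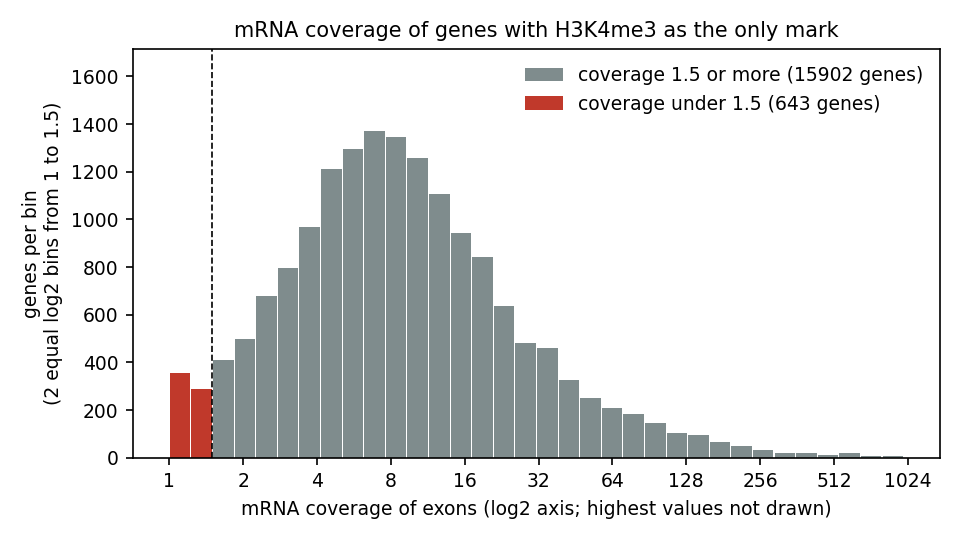
Number of genes (y axis) with H3K4me3 as the only mark by mRNA coverage (x axis, log2 scale), with the 643 genes under 1.5 in red and the dashed line at 1.5. The 2 red bins hold 354 and 289 genes, and the first grey bin beside them holds 412.

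The limit of 1.5 does not fall in a gap of the distribution. The 2 members nearest below it were Aa_G518840 on chromosome 3 (17655528 to 17660468, coverage 1.498) and Aa_G110770 on chromosome 4 (6748025 to 6750216, coverage 1.498). Just above, Aa_G425940 on chromosome 5 (7124452 to 7124928) and Aa_G556310 on chromosome 7 (7050188 to 7053052) both held 1.5. There were 104 genes of the mark state between 1.4 and 1.5 and 123 between 1.5 and 1.6, with median spans of 1920 and 1931 bp. On the side of the H3K4me3 minimum, 48 members had at least 200 and under 300 bp of the mark. A further 33 genes without other marks and with a coverage under 1.5 had at least 100 and under 200 bp and were left outside. Most genes of low coverage without a mark, 1323 of 1368, did not touch an H3K4me3 domain at all, so the minimum separated few borderline genes.

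H3K4me3 domains were shorter and of lower score on the members than on the other genes of the mark state. The measure was the authors' score of a domain divided by its length in kb, taken for the leading domain, the one with most bp in the gene. This score was not used by the rule and is comparable only within the H3K4me3 list. Its median was 597 per kb in the members (interval 573 to 613, quartiles 476 and 775) and 973 per kb in the others (967 to 981, quartiles 746 and 1247). The upper quartile of the members thus lay close to the lower quartile of the others. The leading domain had a median length of 600 bp against 750 bp. It was at most 450 bp long in 46.8% of the members (42.9% to 50.8%) and in 10.9% of the others (10.4% to 11.4%). Within the span, H3K4me3 covered a median of 450 bp in the members and 750 bp in the others, or 28.2% and 35.8% of the span.

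The members' leading domains had a higher median score than H3K4me3 domains touching no listed gene. Whether the latter lie on genes missing from the list could not be checked. The 17186 H3K4me3 domains clear of every listed gene had a median of 442 per kb. Those overlapping at least 1 listed gene, 20321 in number, had a median of 889 per kb. Among the members 18.7% (15.7% to 21.9%) had a leading domain at or under the former value, against 2.94% (2.68% to 3.21%) of the others. At the opposite end, 66 members, 10.3% (8.03% to 12.9%), had a leading domain at or above the median of the others. Over all 16545 genes of the mark state that share was 48.5%.

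The score was higher at higher mRNA coverage through the whole mark state, and the members were its low end. The median was 557 per kb at a coverage of exactly 1 (530 to 584) and 613 between 1 and 1.5 (594 to 640). It was 735 from 1.5 to under 2, 795 from 2 to under 3, and 906 from 3 to under 5. In the next 3 classes it was 955, 1013 and 1040, and it was 1113 per kb (1098 to 1132) at a coverage of 25 or more. The limit of 1.5 lay within this gradient. Across the 16545 genes the rank correlation of coverage with score was 0.31, and within the 643 members it was 0.13. These coefficients share 1 mRNA library and 1 domain list, and the genes are not independent.

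**Figure D2:**
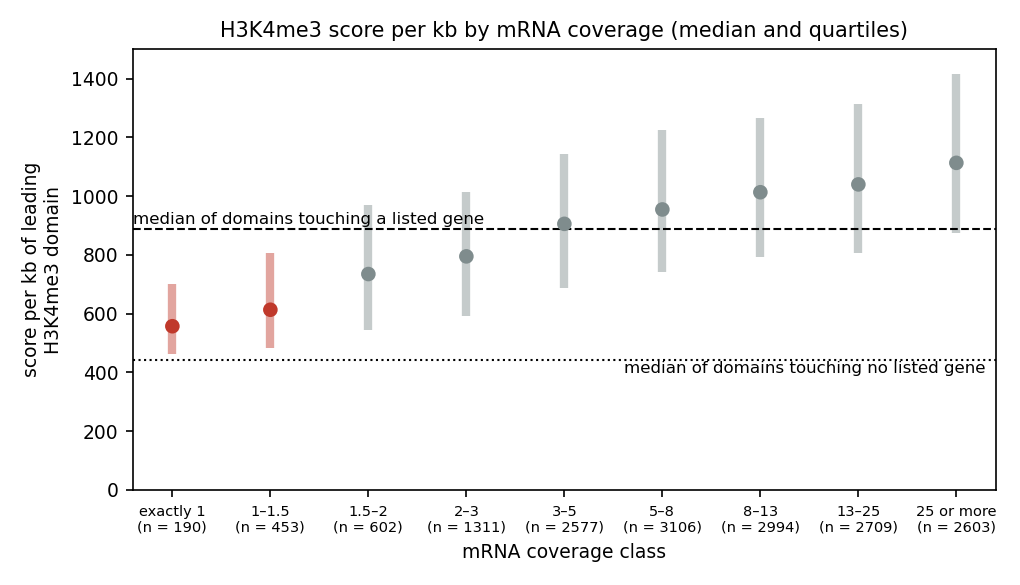
Score per kb of the leading H3K4me3 domain (y axis) in classes of mRNA coverage (x axis) among genes with H3K4me3 as the only mark. Points are medians and bars quartiles, red for coverage under 1.5; the medians go from 557 at a coverage of exactly 1 to 1113 at 25 or more, and the lines mark 442 for domains touching no listed gene and 889 for those touching one.

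Seen from the side of the mark, genes of almost no mRNA were most frequent at low scores. When the mark state was divided into 10 groups of equal size by score per kb, members made up 16.1% (14.4% to 18.0%) of the lowest group, 8.46% of the next and 4.53% of the one after it. In the upper 3 groups they made up 0.483%, 0.665% and 0.665%, which were 8, 11 and 11 genes. Domain length gave a similar order. Members were 19.4% (16.2% to 22.8%) of genes whose leading domain was shorter than 450 bp and 1.05% (0.705% to 1.51%) of those with 1200 bp or more. The members' score was lower within classes of length too. Among leading domains of 600 to under 750 bp the median was 633 per kb in the members and 908 in the others, and among those of 1200 bp or more it was 851 and 1114. Below 450 bp the 2 medians were closer, 483 and 525.

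Along the gene, H3K4me3 on the members sat at an end less often. An end was called marked if domains covered 150 bp or more of the 300 bp next to it, in genes with a span of 600 bp or more (597 members and 15562 others). The files give no strand, so start and stop could not be told apart. The mark was at 1 end in 455 members, 76.2% (72.6% to 79.6%), and in 86.1% (85.5% to 86.6%) of the others. Both ends were marked in 8.04% and 7.85%. Neither end was marked in 94 members, 15.7% (12.9% to 18.9%), and in 6.07% (5.70% to 6.45%) of the others, a difference of 9.68 percentage points (6.95 to 12.8). This share also followed coverage, from 18.8% at exactly 1 and 14.52% between 1 and 1.5 to 9.98% from 1.5 to under 2 and 4.72% at 25 or more. When H3K4me3 had to cover 50% of the span in place of 200 bp, 152 members were left. Their median span was 797 bp, against 1349 bp in the others. A marked end was then found in 97.2% of the members and 96.4% of the others. The difference was 0.828 percentage points (-4.31 to 2.76). Covering 50% of a short span leaves little room for unmarked ends, so this setting can hardly show a difference.

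Where neither end was marked, the domain mostly lay near an end, with exceptions. In those 94 members the leading domain began a median of 285 bp from the nearer end (quartiles 186 and 506), and in 48 of them the distance was under 300 bp. It was at most 1 kb in 88.3% of them, and the rest lay further inside. The 94 had a median span of 2128.5 bp, and in genes of that length few positions are over 1 kb from both ends. The 88.3% is thus in large part set by span, and the rule for a marked end keeps these domains from starting at the end itself. As a share of the span, the median distance was 17.5%. In the 944 others of this kind the median distance was 249 bp, or 12.1% of the span, and the median span 2631 bp. The 94 had a median score of 511 per kb, against 612 for the 503 members with a marked end. The 944 had 757 per kb, against 987 for the 14618 others with a marked end. In both sets the genes without a marked end had the lower scores.

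Aligned on the better marked end, H3K4me3 peaked at the same place in both sets and ran less far into the members. Of the bp between 200 and 300 from that end, 88.7% lay in domains in the members and 96.5% in the others, the highest value along the gene in each. Between 1000 and 1100 bp inside, 7.46% did in the members and 22.7% in the others. Outside the gene, the first 200 bp had 22.9% and 19.4%. The alignment itself used H3K4me3, so the height at the end is partly set by it.

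**Figure D3:**
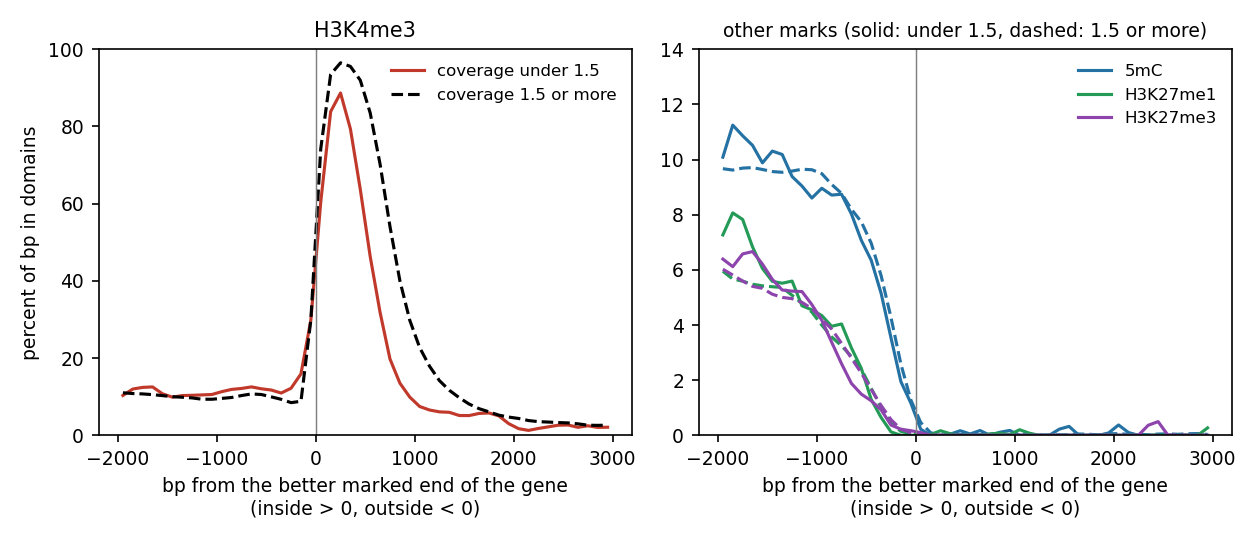
Percent of bp inside domains (y axis) by distance from the better marked gene end (x axis, bp, 100 bp bins, inside the gene to the right) for 597 genes with coverage under 1.5 and 15562 with 1.5 or more. H3K4me3 (left) peaks at 88.7% and 96.5% in the bin from 200 to 300 bp and extends less far into the genes under 1.5; outside the gene (right) H3K27me1 stands at 7.67% and 5.81% between 1800 and 2000 bp, and 5mC at 10.7% and 9.64%.

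The members were shorter than the other genes of the mark state. The minimum of 200 bp of H3K4me3 favours long genes, and a low coverage per covered base may favour short ones. How far the difference in span follows from these was not tested. Their median span was 1850 bp (interval 1752 to 1966), with quartiles of 1122 and 2746 bp, against 2211 bp (2185 to 2235) with quartiles of 1538 and 3157 bp. Members made up 11.9% (8.86% to 15.6%) of the mark state's genes under 600 bp and 7.60% (6.13% to 9.29%) of those from 600 to under 1000 bp. From 1000 to under 1500 bp they made up 4.31%, and from 3000 to under 5000 bp 2.65% (2.14% to 3.26%). At 5000 bp or more the share was 3.54% (2.59% to 4.73%), so it was not lower at every step. The members at exactly 1 were the shortest, with a median of 1515 bp against 1977 bp for those above 1. The lower score was found at every span. In each of 7 classes of span the members' median score per kb was between 0.577 and 0.688 times that of the others.

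**Figure D4:**
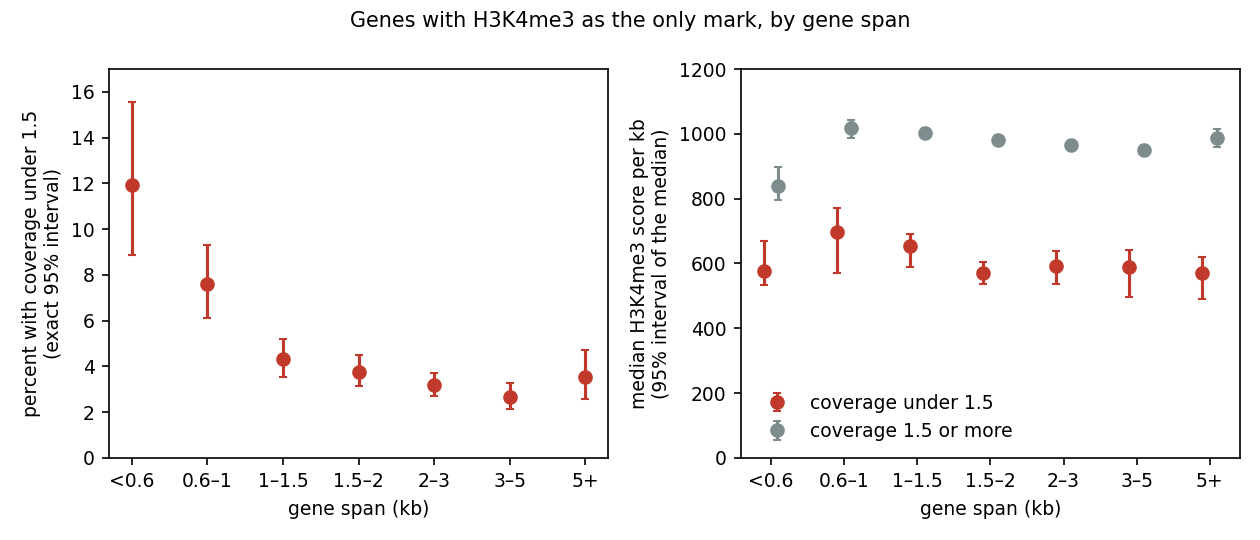
Left, percent of genes with H3K4me3 as the only mark that had a coverage under 1.5 (y axis) by gene span (x axis, kb), from 11.9% under 0.6 kb to 2.65% at 3 to 5 kb and 3.54% from 5 kb on, with exact 95% intervals. Right, median score per kb of the leading H3K4me3 domain with its 95% interval; the red medians of genes under 1.5 lie between 570 and 696 and below the grey ones in every class.

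The 2 longest members carried the mark as a small patch at an end. Among the 44 members of 5000 bp or more as a whole, 20.5% had neither end marked. Aa_G48810 on chromosome 5 (21064895 to 21078876) spanned 13982 bp, had a coverage of 1 and held 276 bp of H3K4me3 in a 300 bp domain (21078601 to 21078900, 597 per kb) at its right end. Its nearest listed neighbour lay 170 bp away with a coverage of 2.88. Aa_G167240 on chromosome 2 (8242334 to 8252248, span 9915 bp, coverage 1) had a 300 bp domain of 387 per kb near its left end (8242351 to 8242650), and its nearest neighbour, 106 bp away, had 5.86. In both, H3K4me3 covered under 5% of the span, at 1.97% and 3.03%.

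At the other extreme the mark filled the gene. Aa_G331260 on chromosome 5 (15469624 to 15470684, 1061 bp, coverage 1.38) and Aa_G32160 on chromosome 3 (10012956 to 10013850, 895 bp, coverage 1.32) lay wholly inside H3K4me3, in domains of 566 and 1233 per kb. The most H3K4me3 in bp was on Aa_G53960 on chromosome 8 (476133 to 478337), with 1937 bp over 87.8% of its span, a coverage of 1.28 and a score of 489 per kb. Aa_G28730 on chromosome 2 (15799565 to 15801444, coverage 1) followed with 1736 bp over 92.3% of its span at 510 per kb. Large extent did not mean a high score in these genes, since 3 of the 4 domains were under the members' own median of 597 per kb.

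The 2 highest scores were on domains of 750 bp, the upper quartile of the members' leading domains by length. Aa_G186710 on chromosome 7 (15652342 to 15653576, coverage 1.38) had a domain of 2141 per kb, wholly inside the gene (15652801 to 15653550). Its nearest listed gene was 2974 bp away. Aa_G703750 on scaff_48293_1 (7896 to 8540, coverage 1.402) lay wholly inside a domain of 1835 per kb (7801 to 8550) and had no other listed gene on its scaffold. Both scores were above the upper quartile of the other genes of the mark state, 1247 per kb.

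A domain shared with a better expressed neighbour was rare in both sets, while a domain lying mostly outside the gene was more frequent in the members. At least 50% of the leading domain's length was outside the gene in 39 members, 6.07% (4.35% to 8.20%), and in 2.67% (2.42% to 2.93%) of the others, a difference of 3.40 percentage points (1.78 to 5.53). It lay wholly inside the gene in 56.5% (52.5% to 60.3%) of the members and 48.0% (47.2% to 48.8%) of the others. The leading domain of 30 members, 4.67% (3.17% to 6.59%), also touched a listed gene with a coverage of 1.5 or more. In the others this share was 4.12% (3.82% to 4.44%), and the difference of 0.547 percentage points had an interval from -0.868 to 2.49. By span, the share was higher in the members only from 2000 to under 3000 bp, at 7.24% (11 genes) and 2.71%. It was lower in the other classes, as from 600 to under 1000 bp, at 4.60% (4 genes) and 10.9%. The neighbours of those 30 had a median coverage of 8.37 (quartiles 2.999 and 21.5), and 13 of them had 10 or more. Coverages of such neighbours were not computed for the others. More bp lay in the neighbour than in the gene itself for 9 of the 30 domains, and for 253 of the 655 shared domains of the others. As shares of all genes in each set, these differed by -0.191 percentage points (-0.884 to 1.061). The neighbours of highest coverage were next to Aa_G568090 and Aa_G41890. Aa_G568090 on chromosome 4 (3432107 to 3434395, coverage 1.44) had 595 bp of a 1650 bp domain (3433801 to 3435450) that also ran over 881 bp of Aa_G568100, with a coverage of 1019. Aa_G41890 on chromosome 6 (19956274 to 19958796, coverage 1.14) had 546 bp of a 2700 bp domain of 1766 per kb (19958251 to 19960950), of which 1766 bp lay on Aa_G41880, with a coverage of 941. In these 2 cases most of the domain lay on the neighbour. The score was as far apart without shared domains. Among the 610 members whose leading domain touched no other listed gene the median was 589 per kb, against 969 in 15218 others.

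The coverage of neighbouring genes lay close in both sets, and members stood somewhat further from them. The nearest listed gene had a median coverage of 5.93 (5.29 to 6.55) beside the members and 6.37 beside the others. It was itself under 1.5 in 12.7% (10.2% to 15.6%) and 12.4% (11.9% to 12.97%), and in 13.2% of all listed genes. Its median distance was 675 bp from the members and 524 bp from the others. It lay within 1 kb in 54.9% (50.9% to 58.9%) and 61.3% (60.5% to 62.0%), a difference of -6.36 percentage points (-10.3 to -2.44). This share was lower in the members in each class of span from 600 to under 5000 bp. Under 600 bp it was 54.3% in the members and 53.0% in the others, and at 5000 bp or more 65.9% and 62.9%. The median gap was wider on the side of the marked end in both sets. For the 438 members with 1 marked end and listed genes on both sides it was 3637 bp on that side and 1607 bp on the other, and for 13039 others it was 3134 and 1036 bp. The marked end was the one nearer to a listed gene in 38.4% (33.8% to 43.1%) and 35.98% (35.1% to 36.8%). Among the 297 members with no listed gene within 1 kb, the median score was 610 per kb, against 967 in the 6248 others so placed.

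**Figure D5:**
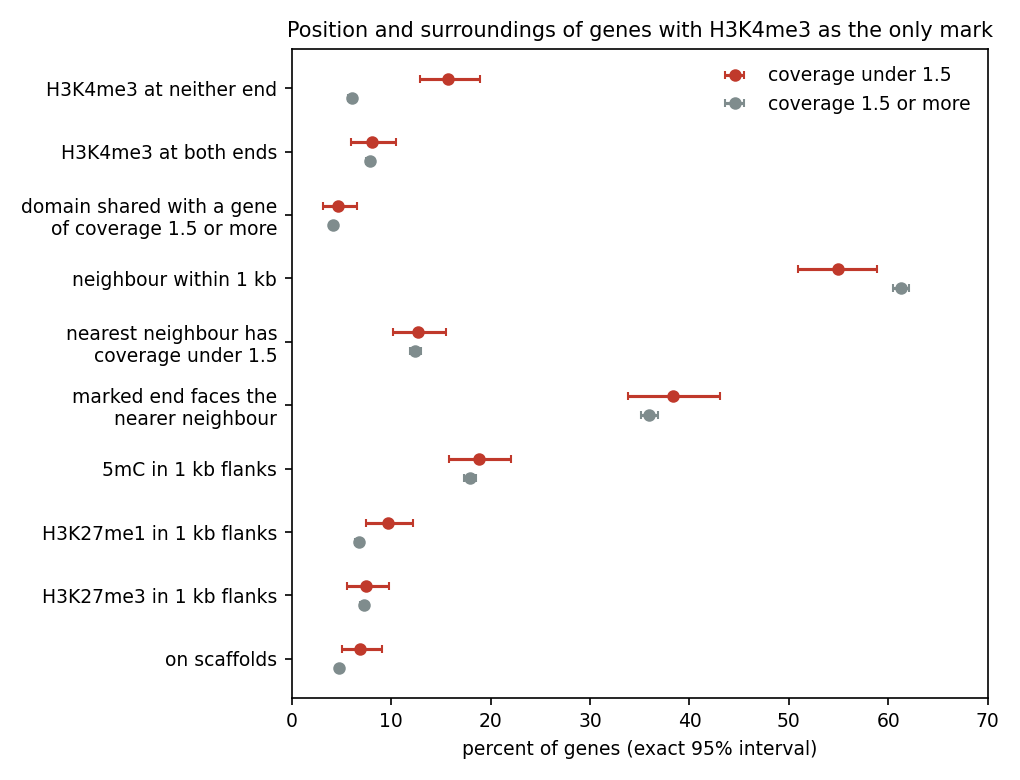
Percent of genes (x axis, with exact 95% intervals) with each property of position or surroundings (y axis), for genes with H3K4me3 as the only mark and a coverage under 1.5 (red) or of 1.5 or more (grey). H3K4me3 at neither end (15.7% and 6.07%) and a neighbour within 1 kb (54.9% and 61.3%) stand furthest apart of the 10 properties drawn, and the shared domain (4.67% and 4.12%) and 5mC flanks (18.8% and 17.9%) lie close together.

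The silencing marks, which the rule kept off the spans, lay around about as many members as other genes, with H3K27me1 somewhat more frequent. At least 200 bp of any of them lay in the 1 kb flanks, both sides pooled, of 170 members, 26.4% (23.1% to 30.0%), and of 25.1% (24.5% to 25.8%) of the others. 5mC was there in 18.8% and 17.9%, and H3K27me3 in 7.47% and 7.23%. The intervals of these differences ran from -2.01 to 4.14 and from -1.60 to 2.56 percentage points. H3K27me1 was in the flanks of 62 members, 9.64% (7.47% to 12.2%), and of 6.79% (6.41% to 7.19%) of the others, a difference of 2.85 percentage points (0.764 to 5.41). Among the members at a coverage of exactly 1, 31.6% had a silencing mark in the flanks, against 24.3% of those above 1. Inside the span, some bp of 5mC but under 200 were found in 13 members, 2.02%, and in 1.62% of the others. For H3K27me3 it was 2 members, 0.311%, and 0.119% of the others. The intervals of both differences included 0. For H3K27me1 it was 5 members, 0.778%, and 0.145% of the others, a difference of 0.633 percentage points (0.182 to 1.66).

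The members were spread over the whole assembly. They made up between 3.41% (2.81% to 4.10%) of the mark state's genes on chromosome 8 and 4.24% (3.34% to 5.30%) on chromosome 5, and the intervals of all 8 chromosomes overlapped. On unplaced scaffolds they made up 5.52% (4.04% to 7.34%), 44 of 797 genes. Scaffolds held 6.84% of the members and 4.74% of the others, a difference of 2.11 percentage points (0.368 to 4.35). At a coverage limit of 1.2 this difference was 1.05 points (-1.05 to 4.17). No other listed gene lay on the sequence of 2.02% of the members and 0.924% of the others. In the 100 kb around a gene, 5mC covered a median of 10.7% (9.77% to 11.9%) for members on chromosomes and 10.1% for the others, with 12 and 13 listed genes. In 5 groups of genes of rising 5mC around them, members made up 3.32% (2.72% to 4.01%), 3.41%, 4.05%, 3.58% and 4.66% (3.95% to 5.46%), with no steady order.

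Members were followed by another member about as often as the other genes were. The next listed gene along the sequence was a member for 19 of 619 members, 3.07% (1.86% to 4.75%), and for 2.78% (2.53% to 3.05%) of the others. The difference was 0.285 percentage points (-0.843 to 1.98), and over all listed genes the share was 2.71%. Adjacent members formed 17 pairs and 1 run of 3. The run lay on chromosome 1, with genes at 286540 to 288200, 292393 to 294180 and 301841 to 303690, of coverage 1, 1 and 1.33. Their spans were similar, at 1661, 1788 and 1850 bp. Each had a domain of 450 or 600 bp within 100 bp of its right end, with 540, 477 and 707 per kb. Over all adjacent members with 1 marked end each, the mark was on the same side in 8 of 14 pairs. No such share was computed for other adjacent genes.

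Other listed genes under 1.5 in coverage differed from the members in some measures of place and not in others. The 1368 genes under 1.5 without any mark were shorter, with a median span of 1496 bp, and 61.2% (58.5% to 63.8%) of them were at exactly 1, against 29.5% of the members. On scaffolds lay 26.97% (24.6% to 29.4%) of them and 6.84% (5.02% to 9.08%) of the members, and 23.0% against 2.02% had no other listed gene on their sequence. The 798 genes under 1.5 with H3K27me3 alone had a median span of 1967 bp, 65.5% (62.1% to 68.8%) at exactly 1, and 7.64% on scaffolds. Their scaffold share differed from the members' by under 1 point (interval of members minus these genes -3.47 to 1.96), but they stood further from other listed genes, with a neighbour within 1 kb in 30.2% (27.03% to 33.6%) against 54.9%. The nearest listed gene had a similar median coverage in all 3 sets, 5.93 for the members, 6.02 for the unmarked and 5.66 for those with H3K27me3.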

How the data were processed

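Domain lists of H3K4me3, H3K27me3, H3K27me1 and 5mC (1 list per mark) and 1 table of exon coverage per gene were used as deposited. Per the submitters' processing notes, the tools were Bowtie and SICER, which calls broad domains. Their versions, the calling parameters, the genome build and the merging of replicates were not given in the sources used here. The last column of each deposited list holds a score in whole numbers, without a header, used only within its list. The deposited mRNA value is a coverage signal, never below 1, whose scaling is not stated. No header says whether it is a mean over covered bases only.

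Domain starts were read as 0-based and ends as inclusive, since all starts and lengths are then whole windows of 150 or 300 bp. Positions are 1-based, on the assembly of the authors' files. Overlaps, neighbours and flanks were computed with Python 3.11.15, numpy 2.4.6 and pandas 2.3.3, and the code was tested on simulated data. Shares carry exact (Clopper-Pearson) intervals from scipy 1.17.1, differences of shares Newcombe intervals, and medians order-statistic intervals. No p-value was computed. The members and lists were chosen with earlier results of these data known. Identifiers named are the 2 at the top of each ranking (span, score per kb, share and bp of H3K4me3, coverage of a gene sharing the domain) and those beside the coverage limit. Gene lists by function could not be used, because the files pair no names.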

Additional observations from a re-analysis of the deposited data

How the results depend on the processing

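No paired analysis was possible because the files used hold a single list of domains for every mark, and for the same reason no replicate could be left out. Of 85 alternative values, 65 stayed within the interval of the reported difference or, for counts, within 1.5 times, 19 moved further and 1 reversed. The alternatives of leading domains touching no other gene and of genes without a neighbour within 1 kb were chosen after seeing the data. The number of members was 325 at a coverage limit of 1.2, 1245 at 2, 190 at exactly 1, 152 with H3K4me3 over 50% of the span, 356 with the upper 50% of H3K4me3 domains by score per kb, and 297 without a neighbour within 1 kb. The following are differences, members minus others. Score per kb differed by -329 at a limit of 2 and by -265 with the upper 50% of domains, against -377 as reported. The upper 50% setting removes domains under 572 per kb and so cuts the very score compared. It is no independent check of the score difference. Median span differed by -505 bp at a limit of 1.2, -690 bp at exactly 1, -552 bp at 50% of the span and -195.5 bp in spans of 1 kb or more, against -361 bp. The share with a marked end differed by 0.828 percentage points at 50% of the span, the 1 change of sign in a difference whose interval excluded 0, and by -5.97 with the upper 50% of domains, against -9.68. Requiring 50% of the span leaves little room for unmarked ends, so that change of sign says little about the reported difference. A silencing mark in the flanks differed by 6.46 points at exactly 1 and 7.16 at 50% of the span, against 1.30. A domain shared with a gene of 1.5 or more differed by -2.06 points at exactly 1 and 2.56 with the upper 50% of domains, against 0.547. A neighbour within 1 kb differed by -12.5 points at exactly 1 and -15.1 at 50% of the span, against -6.36. The causes were not tested. Depth is unknown, so how many reads lie behind a coverage under 1.5 could not be given.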

Other observations

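The 66 members whose leading H3K4me3 domain scored at or above the median of the other genes of the mark state (973 per kb) were picked out after their values were seen. They were shorter, with a median span of 1338 bp against 1894 bp for the other 577 members, and H3K4me3 covered a median of 54.9% of the span against 26.9%. Both ends were marked in 19 of 60 with a span of 600 bp or more, 31.7% (20.3% to 44.96%), against 5.40% (3.65% to 7.66%) of the lower-scoring members. Among other genes of the mark state at or above the same score, 10.5% (9.82% to 11.2%) had both ends marked. Those genes were longer, with a median span of 2175 bp, and the 2 sets were not compared at equal span. The leading domain touched a neighbour with a coverage of 1.5 or more in 8 of the 66, 12.1% (5.38% to 22.5%), against 3.81% (2.40% to 5.72%) of the 577 and 5.01% (4.54% to 5.51%) of the high-scoring others. On scaffolds lay 7 of the 66, 10.6% (4.37% to 20.6%).

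The identifiers run mostly in steps of 10 along the sequences: 16854 of 23059 adjacent listed pairs were 10 apart. The identifiers 10 below and 10 above were both listed for 52.4% (48.5% to 56.3%) of the members and for 55.6% (54.8% to 56.4%) of the other genes of the mark state, a difference of -3.19 percentage points (-7.13 to 0.725). For the unmarked genes under 1.5 the share was 41.4% (38.7% to 44.0%).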
